A study of Mus musculus with 4 samples.

Results

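The Ink4, cyclin D and Rb pathway genes described here are the Ink4 inhibitors Cdkn2a, Cdkn2b and Cdkn2c, the Cip/Kip inhibitor Cdkn1b, the D cyclins Ccnd1, Ccnd2 and Ccnd3, the kinases Cdk4 and Cdk6, and the pocket protein gene Rb1. They were taken by symbol from the combined table of raw counts, and 10 of the 39017 genes in that table were these members. The table holds RNA sequencing counts of bulk lung tumours from 4 male mice, with 1 library per tumour, in a single group labelled Control. The mice were on a C57BL/6 background and belonged to the KP model of lung adenocarcinoma, whose alleles include floxed p53 (p53 Fl/Fl), which Cre recombinase removes. The labels give a further genotype, heterozygous fl/wt, with no gene named, whereas the deposited log2 table calls the same tumours WT, and in the study's methods controls have either no floxed Slc2a1 allele or 1 of them. Each mouse received 1500 viral units of lenti.PGK-Cre through the trachea, and the PGK promoter that drives Cre is active in nearly any cell type, so recombination was not limited by the promoter to one lung cell type. Tumours were macrodissected 22 weeks and 5 days later and dissociated without a sort for tumour cells, and poly(A) libraries were made from 500 ng of total RNA. Tumour numbers 1 to 4 are the labels' replicate numbers. Nothing in the labels says whether a library held 1 lesion or several, so p-values measure only the spread between these 4 libraries.

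The D cyclins bind and activate Cdk4 and Cdk6 in response to growth signals, and the active kinases phosphorylate the Rb protein, which then releases E2F transcription factors that switch on genes of DNA replication. Ink4 proteins bind Cdk4 and Cdk6 and keep the D cyclins off, whereas p27, the Cdkn1b product, binds cyclin and kinase complexes. The Cdkn2a locus is known as a tumour suppressor in lung adenocarcinoma, since it encodes both the Ink4 protein p16Ink4a and Arf, an unrelated protein that restrains Mdm2 and so keeps p53 stable.

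The counts of Cdkn2a (ENSMUSG00000044303; GRCm38, chromosome 4, 89274471 to 89294653, minus strand) do not separate p16Ink4a from Arf. The gene has 2 annotated transcripts that start at different first exons and share the later exons, of 852 nt (Cdkn2a-201) and 895 nt (Cdkn2a-202), and the deposited value is a sum over both. The windows around the 2 starts, 250 bases before to 50 bases after each, are shown because the 2 messages start there, each with its own first exon, and most of the letters lie before the start and outside the messages. Capitals mark the match found to an E2F-type motif.
Upstream first exon (Arf), chr4:89294570-89294869, minus strand: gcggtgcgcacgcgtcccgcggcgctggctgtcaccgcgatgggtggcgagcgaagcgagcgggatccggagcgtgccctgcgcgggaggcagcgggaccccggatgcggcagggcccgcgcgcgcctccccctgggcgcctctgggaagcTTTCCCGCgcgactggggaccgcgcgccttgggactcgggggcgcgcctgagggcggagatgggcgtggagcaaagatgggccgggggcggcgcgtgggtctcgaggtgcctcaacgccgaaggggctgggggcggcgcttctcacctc
Downstream first exon (p16Ink4a), chr4:89282143-89282442, minus strand: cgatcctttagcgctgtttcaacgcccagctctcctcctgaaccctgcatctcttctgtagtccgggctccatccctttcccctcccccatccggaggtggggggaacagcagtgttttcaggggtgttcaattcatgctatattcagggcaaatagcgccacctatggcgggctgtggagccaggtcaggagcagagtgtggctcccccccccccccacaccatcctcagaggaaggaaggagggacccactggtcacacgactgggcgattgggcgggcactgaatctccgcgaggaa
Both windows come from RefSeq on GRCm38.p6. The motifs searched, on both strands, were TTTCCCGC, TTTCGCGC, TTTGGCGC and TTTGCCGC. The Arf window held 1 match, TTTCCCGC at bases 152 to 159 of the window, and the p16Ink4a window held 0 matches. Windows were found for 7 of the 10 members, and 1 of their 10 windows held a match, against 744 of 32851 windows (2.26%) over all genes. Ccnd1, Ccnd2 and Rb1 had no window in the table used. A match is a stretch of letters and not a binding site, and the absence of one says nothing about E2F.

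Total counts were between 8151613 and 8799007 per tumour, and 3 counts, the limit that a count of 0 allows, corresponded to 0.330 to 0.370 CPM (the count scaled to 1e+06 of the TMM effective library size). The lowest count of any member in any tumour was 26. No pair of libraries agreed within sampling noise, since the mean chi-square per gene between pairs was 17.5 at the lowest (tumours 2 and 4). Tumours 1 and 3 stood furthest apart, at 69.1. Their cell markers differed too. The summed level of 8 alveolar type 2 markers, led by the surfactant gene Sftpc, was 32860 CPM in tumour 1 against 53158 to 60875 CPM in the other tumours, and that of 8 pan-leukocyte markers was 559, 871, 915 and 781 CPM in tumours 1 to 4. Of the 8 pan-leukocyte markers 7, and of the 8 T cell markers 7, were highest in tumour 3. Macrophage markers summed to 259 CPM in tumour 3 and 136 to 162 CPM elsewhere, T cell markers to 23.9 CPM against 6.71 to 7.67 CPM, and B cell markers to 6.27 to 21.6 CPM over the 4 tumours, with Pax5 at or under the floor in each. Endothelial markers summed to between 257 and 337 CPM, fibroblast markers to between 844 and 1882 CPM and epithelial markers to between 2710 and 4542 CPM. Trp53, whose floxed alleles Cre removes in tumour cells, had 13.0, 12.3, 9.75 and 12.7 CPM in tumours 1 to 4. In bulk tumours, fewer cells of a type and less RNA per cell cannot be told apart.

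The 4 tumours are 1 group, so the question the design allows is how far each gene's level differed between tumours, beyond what counting error gives. Each gene's 4 counts were tested against Poisson expectations proportional to effective library size by a chi-square test, adjusted by Benjamini-Hochberg over 14225 genes with a mean of at least 1 CPM. All 10 members were tested and 10 of 10 varied beyond counting noise at an adjusted p under 0.05, whereas 76.7% of all genes tested did. A call of this kind is therefore common in these libraries, and the sizes of the differences carry more information than the calls. The median SD of log2 CPM was 0.31 over the 10 members and 0.29 over all genes tested. It was 0.25 over the 10269 genes with a mean of at least 10 CPM. By Dixon's ratio, the gap from the highest or lowest tumour to its neighbour over the whole range of log2 CPM, 0 of 10 members had 1 tumour apart at the 95% limit, against 5.86% of all genes tested. The members did not follow 1 order of tumours, since 3, 2, 3 and 2 of them were highest in tumours 1 to 4, and 3, 1, 3 and 3 were lowest there.

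**Figure D1:**
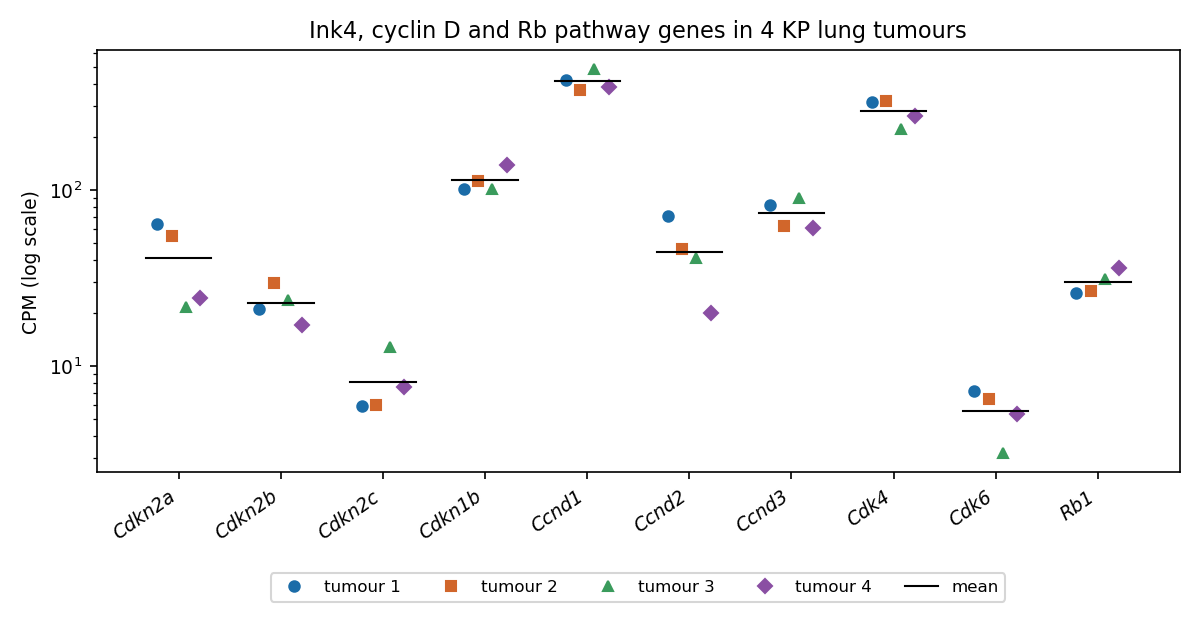
Level of each gene in CPM (log axis) in the 4 KP tumours, with 1 symbol per tumour and a bar for the mean. Cdkn2a lies at 64.0 and 55.1 CPM in tumours 1 and 2 and at 21.6 and 24.5 CPM in tumours 3 and 4, and Ccnd2 runs from 20.1 to 70.9 CPM, whereas Ccnd1 stays between 370 and 485 CPM.

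Among the inhibitors, Cdkn2a had the widest spread of the 10 genes. Its level was 64.0 CPM in tumour 1, 55.1 CPM in tumour 2, 21.6 CPM in tumour 3 and 24.5 CPM in tumour 4 (41.3 ± 21.4, SD, n = 4). Tumours 1 and 2 were thus high and tumours 3 and 4 low, with a gap between the pairs larger than the gap within either. These levels rest on 582, 474, 175 and 206 counts, and the highest tumour was 2.97 times the lowest (95% counting interval 2.50 to 3.53). Here and below, the tumours of such a ratio were picked as highest and lowest from the same counts. The interval does not allow for that choice, so the 95% does not hold as stated. The SD of log2 CPM was 0.80, where counting error alone gives 0.09, and 9.68% of the genes tested had a larger SD (adjusted p = 1.43e-59). Leaving out any 1 tumour kept the SD between 0.73 and 0.86. The mean log2 CPM of 8 pan-leukocyte markers was 4.77, 5.09, 5.99 and 5.26 in tumours 1 to 4, that of 6 macrophage markers 3.90, 4.11, 5.10 and 4.32, and that of the 2 B cell markers tested, of 6, -0.14, 0.53, 2.73 and 2.05. These lists ran in the reverse order of Cdkn2a, lowest in tumour 1 and highest in tumour 3. By summed CPM the pan-leukocyte list did not, with 871 CPM in tumour 2 above 781 CPM in tumour 4. The mean log2 CPM of the 4 T cell markers tested, of 8, was 0.23, 0.31, 1.88 and 0.02, lowest in tumour 4. That of 8 alveolar type 2 markers was 10.77, 11.77, 11.70 and 11.89, lowest in tumour 1 but highest in tumour 4. Summed epithelial markers were 4542, 2814, 2710 and 2895 CPM, highest in tumour 1 and lowest in tumour 3 as Cdkn2a was, but without its high value in tumour 2. Of the 6 epithelial markers 5 were highest in tumour 1, whereas 1, 3 and 2 were lowest in tumours 1, 2 and 3. The part of these markers in the Cdkn2a difference was not tested.

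Cdkn2b (ENSMUSG00000073802; chromosome 4, 89306299 to 89311039, minus strand), which encodes the Ink4 protein p15Ink4b and lies next to Cdkn2a, did not show the same pattern. It had 21.0, 29.5, 23.7 and 17.1 CPM in tumours 1 to 4 (22.8 ± 5.20, SD, n = 4). Tumour 2 was the highest and tumour 4 the lowest, with a ratio of 1.72 (95% counting interval 1.399 to 2.13, adjusted p = 2.64e-06). The log2 SD of 0.33 was close to the median of 0.29 over all genes tested. The median was 0.25 over genes with a mean of at least 10 CPM. The windows and transcripts of these neighbours do not overlap, and neither gene has an annotated overlapping gene or a near-identical copy in the annotation.

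Cdkn2c (ENSMUSG00000028551; chromosome 4, 109660876 to 109667189, minus strand) encodes p18Ink4c, another Cdk4 and Cdk6 inhibitor. Its level was 5.94, 6.04, 12.8 and 7.61 CPM in tumours 1 to 4 (8.11 ± 3.24, SD, n = 4). Tumour 3 was the high one, at 2.16 times the lowest tumour (95% counting interval 1.54 to 3.06), and the other tumours lay within 5.94 to 7.61 CPM. The call rested on tumour 3, since without it the log2 SD fell from 0.52 to 0.20 and the adjusted p became 0.38. Tumour 3 also held the highest summed pan-leukocyte, T cell and macrophage markers given above, whose part in this value was not tested.

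Cdkn1b (ENSMUSG00000003031; chromosome 6, 134920401 to 134925513, plus strand), is the gene of p27. It had 101, 113, 101 and 139 CPM in tumours 1 to 4 (114 ± 18.1, SD, n = 4). Tumour 4 was the highest, at 1.38 times the lowest (95% counting interval 1.27 to 1.51, adjusted p = 3.20e-15). Its log2 SD was 0.22, which 66.5% of the genes tested exceeded, and it was 0.09 without tumour 4.

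Among the D cyclins, Ccnd1 (ENSMUSG00000070348; chromosome 7, 144929931 to 144939925, minus strand) had the highest level per kilobase and the smallest spread. It had 425, 370, 485 and 387 CPM in tumours 1 to 4 (417 ± 51.3, SD, n = 4). Tumour 3 was the highest and tumour 2 the lowest, at a ratio of 1.31 (95% counting interval 1.25 to 1.38), and 77.6% of the genes tested had a larger log2 SD than its 0.17, which was 0.10 without tumour 3. Ccnd1 shares 1100 nt of exon with LTO1 on the opposite strand, which had a mean of 25.7 CPM.

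Ccnd2 (ENSMUSG00000000184; chromosome 6, 127125162 to 127152193, minus strand) was the D cyclin that differed most between tumours. It had 70.9, 46.3, 41.1 and 20.1 CPM in tumours 1 to 4 (44.6 ± 20.9, SD, n = 4). Tumour 1 was the highest and tumour 4 the lowest, at a ratio of 3.53 (95% counting interval 2.97 to 4.20), the largest ratio among the 10 genes. Its SD of 0.75 on the log2 scale (adjusted p = 1.95e-53) was exceeded by 10.9% of the genes tested, and without tumour 4 it was 0.41. Summed fibroblast markers were 1882, 1387, 1126 and 844 CPM in tumours 1 to 4, with 5 of the 8 markers highest in tumour 1 and 5 lowest in tumour 4, and the mean log2 CPM of 17 E2F target genes was 5.85, 5.72, 5.58 and 5.20. Both were lowest in tumour 4, as Ccnd2 was, and their part in its difference was not tested. The gene 9330179D12Rik overlaps Ccnd2 on the opposite strand over 368 nt and had a mean of 0.0881 CPM.

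Ccnd3 (ENSMUSG00000034165; chromosome 17, 47505051 to 47599691, plus strand) lay between its paralogs in level per kilobase. It had 82.9, 62.8, 90.5 and 60.5 CPM in tumours 1 to 4 (74.2 ± 14.8, SD, n = 4). Tumours 1 and 3 were high and tumours 2 and 4 low, with a ratio of 1.49 (95% counting interval 1.33 to 1.68, adjusted p = 2.29e-15). The order of the tumours was close to that of Ccnd1, where tumours 1 and 3 also had the highest values. Ccnd3 has 21 annotated transcripts and overlaps Bysl on the opposite strand over 361 nt of exon (mean 18.3 CPM). A processed pseudogene, Ccnd3-ps, shares a stretch of 295 nt and reached 0.116 CPM.

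Cdk4 (ENSMUSG00000006728; chromosome 10, 127063534 to 127067920, plus strand), the kinase that the D cyclins activate, had the highest level per kilobase of the 10 genes by the longest basic transcript, and the second highest, after Ccnd1, by merged exon length. It had 318, 320, 224 and 264 CPM in tumours 1 to 4 (281 ± 46.3, SD, n = 4). Tumours 1 and 2 were high and tumour 3 the lowest, with a ratio of 1.43 (95% counting interval 1.35 to 1.52, adjusted p = 3.12e-40). The log2 SD was 0.25, and 0.16 without tumour 3. Tspan31 overlaps it on the opposite strand over 641 nt and had a mean of 117 CPM. The authors' methods name a stranded library kit, but the strand setting of the counting is not given in the sources used here. Whether reads of that stretch were counted by strand is therefore not known.

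Cdk6 (ENSMUSG00000040274; chromosome 5, 3341485 to 3531008, plus strand), the other D cyclin partner, had the lowest level per kilobase. It had 7.26, 6.51, 3.21 and 5.35 CPM in tumours 1 to 4 (5.58 ± 1.77, SD, n = 4), from 66, 56, 26 and 45 counts. Tumour 3 was the low one, as it was for Cdk4 and Cdkn2a, and the ratio of 2.26 carried a wide counting interval of 1.42 to 3.71. Without tumour 3 the log2 SD dropped to 0.22, the size that counting error alone gives, and the adjusted p was 0.35. Cdk6 has 6 near-identical copies in the annotation, so its level is less certain. Among them is a stretch of 109 nt in Ash2l (mean 89.2 CPM). Gm17590 overlaps Cdk6 on the opposite strand over 368 nt.

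Rb1 (ENSMUSG00000022105; chromosome 14, 73183673 to 73325822, minus strand), whose product holds E2F factors, had 26.0, 26.8, 31.3 and 36.0 CPM in tumours 1 to 4 (30.0 ± 4.64, SD, n = 4). Tumour 4 was the highest, at 1.39 times tumour 1 (95% counting interval 1.17 to 1.65, adjusted p = 5.88e-04). Without tumour 4 the adjusted p was 0.095. Rb1 shares 488 nt with Rcbtb2 (mean 54.7 CPM) and 408 nt with Lpar6 (mean 31.6 CPM), on the opposite strand. Whether reads of these stretches were kept apart from its own depends on the strand setting of the counting, which is not known.

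**Figure D2:**
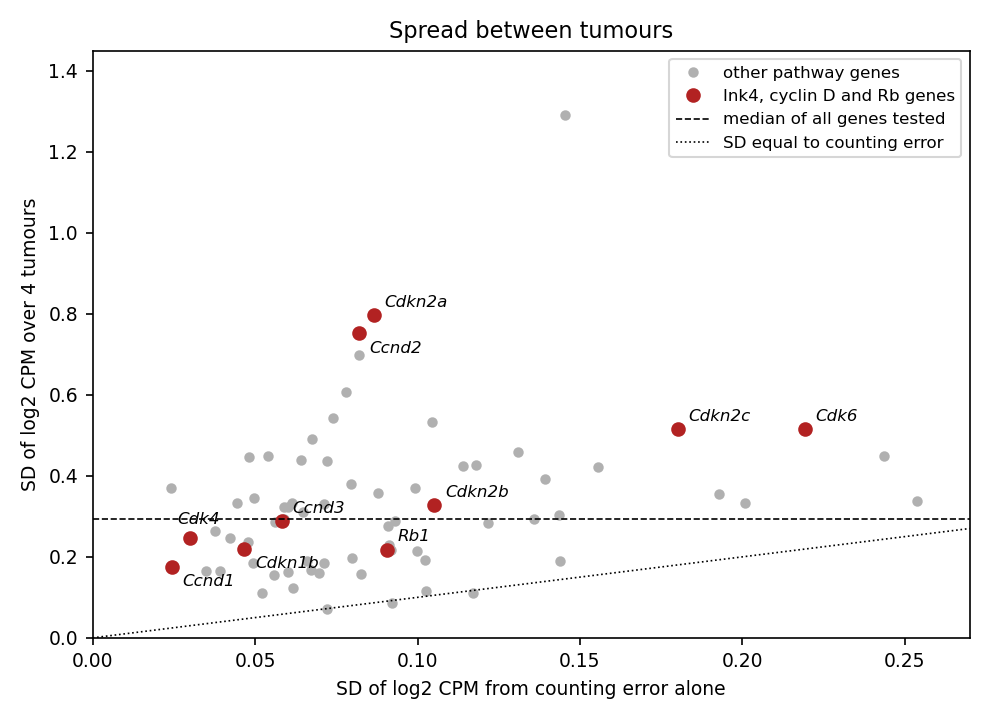
SD of log2 CPM over the 4 tumours (vertical axis) against the SD that counting error alone would give (horizontal axis) for the 10 genes (red, named) and the other pathway genes (grey). The dashed line is the median of all genes tested, 0.29, and the dotted line marks equality. Cdkn2a (0.80) and Ccnd2 (0.75) lie far above counting error of 0.09 and 0.08, whereas Cdk6 has a counting SD of 0.22.

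Levels of different genes were compared per kilobase of the longest GENCODE basic transcript, within each tumour, since a longer transcript gives more reads at the same abundance. The tests used the log2 difference in each of the 4 tumours and an exact two-sided sign-flip permutation, which cannot give less than p = 0.125 with 4 tumours, so none could pass 0.05. Ccnd1 exceeded Ccnd2 in 4 of 4 tumours, by 4.11 ± 0.73 on the log2 scale (SD), a 17.3-fold difference (exact permutation p = 0.125, 0.141 adjusted over the 9 pairs). The difference widened where Ccnd2 was low, from 3.34 in tumour 1 to 5.02 in tumour 4. Ccnd1 exceeded Ccnd3 in 4 of 4 tumours by 1.68 ± 0.14, and Ccnd2 was below Ccnd3 in 4 of 4, with a difference of -2.43 ± 0.63 (exact permutation p = 0.125 for each). As a share of the summed level per kilobase of the D cyclins, Ccnd1 made 72.7% ± 2.95 (SD, n = 4), Ccnd3 22.7% ± 1.4 and Ccnd2 4.55% ± 1.97. The Ccnd2 share was 6.83%, 5.39%, 3.62% and 2.35% in tumours 1 to 4. These shares depend on the transcript length used, since the merged length of all annotated exons of Ccnd3 is 8775 nt against 2113 nt for its longest basic transcript. With merged exon lengths, Ccnd1 made 87.1% and Ccnd3 8.26%, and the log2 difference was 3.40 for Ccnd1 minus Ccnd3 and -0.95 for Ccnd2 minus Ccnd3.

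**Figure D3:**
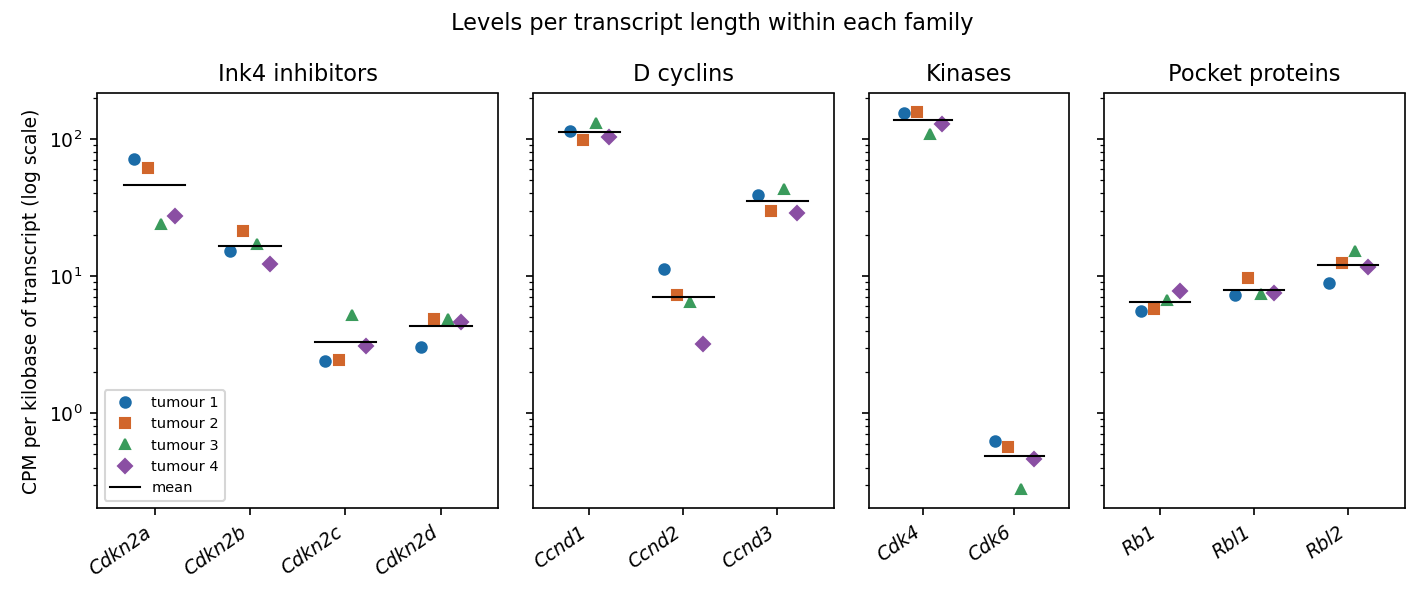
CPM per kilobase of transcript (log axis) in each tumour for the Ink4 genes, D cyclins, kinases and pocket protein genes, with a bar for the mean. Cdk4 averages 137 and Cdk6 0.484 CPM per kilobase, and Ccnd1 111, Ccnd3 35.1 and Ccnd2 7.05. With this length, the longest basic transcript, genes of the kinase or D cyclin families do not overlap between tumours. On CPM with no division by length Ccnd2 and Ccnd3 do, with Ccnd2 at 70.9 in tumour 1 and Ccnd3 at 60.5 in tumour 4.

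Cdk4 exceeded Cdk6 by 8.18 ± 0.28 on the log2 scale of CPM per kilobase, in 4 of 4 tumours, a 290-fold difference (exact permutation p = 0.125). It made 99.7% ± 0.06 of the summed level of the kinases. On CPM with no division by length the difference was 5.69, since the longest Cdk6 transcript is 11525 nt against 2053 nt for Cdk4. For the D cyclins and kinases together, the 3 cyclins summed to 105%, 86.9%, 164% and 105% of the summed Cdk4 and Cdk6 level in tumours 1 to 4 (115% ± 33.6, SD, n = 4). Tumour 3 was highest, where Ccnd1 was high and Cdk4 low.

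Within the Ink4 family, Cdkn2a exceeded Cdkn2b in 4 of 4 tumours, by 2.24, 1.53, 0.50 and 1.15 on the log2 scale per kilobase in tumours 1 to 4 (1.36 ± 0.73, SD; exact permutation p = 0.125). The difference was largest in tumour 1 and smallest in tumour 3. Cdkn2c was below Cdkn2b in 4 of 4 tumours (-2.36 ± 0.63) and below Cdkn2a in 4 of 4 (-3.72 ± 1.27), with exact permutation p = 0.125 for each. With Cdkn2d, the remaining Ink4 gene, which encodes p19Ink4d, the family's summed level was made up of 62.7% ± 13.2 Cdkn2a, 24.8% ± 6.95 Cdkn2b, 5.49% ± 3.59 Cdkn2c and 6.97% ± 3.15 Cdkn2d (SD, n = 4). Arf messages are counted within the Cdkn2a share, although Arf is not an Ink4 protein. The Cdkn2a share was 77.7%, 68.3%, 47.1% and 57.8% in tumours 1 to 4. The summed Ink4 level per kilobase was 59.3%, 57.6%, 46.9% and 36.7% of the summed Cdk4 and Cdk6 level (50.1% ± 10.5). It was higher in tumours 1 and 2 than in 3 and 4. With merged exon lengths that mean was 66.4%. With no division by length, Cdkn2a exceeded Cdkn2b in 3 of 4 tumours, by 0.72 on average, and the difference in tumour 3 was -0.13 (exact permutation p = 0.25).

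Rb1 was compared with its paralogs Rbl1 and Rbl2, which encode the pocket proteins p107 and p130. It was below Rbl2 in 4 of 4 tumours, by -0.89 ± 0.29 on the log2 scale per kilobase (exact permutation p = 0.125), and differed from Rbl1 by -0.30 ± 0.34, with 1 tumour above and 3 below (exact permutation p = 0.25). The last difference was within the spread between tumours, and with merged exon lengths or no division by length Rb1 was below Rbl1 in 4 of 4 (exact permutation p = 0.125). Rb1 made 24.5% ± 3.48 of the pocket protein level, Rbl1 30.3% ± 4.37 and Rbl2 45.2% ± 4.47.

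Ordered by level per kilobase, the genes ran from Cdk4 (137 ± 22.5 CPM per kilobase, SD, n = 4) through Ccnd1 (111 ± 13.7), Cdkn2a (46.1 ± 23.9), Ccnd3 (35.1 ± 6.99), Cdkn1b (24.9 ± 3.98), Cdkn2b (16.4 ± 3.74), Ccnd2 (7.05 ± 3.30), Rb1 (6.45 ± 0.996) and Cdkn2c (3.28 ± 1.31) to Cdk6 (0.484 ± 0.153). Cdk4 and Ccnd1 overlapped between tumours, as did Cdkn2a and Ccnd3, Ccnd3 and Cdkn1b, and Ccnd2 and Rb1. Ccnd1 and Cdkn2a, Cdkn1b and Cdkn2b, Cdkn2b and Ccnd2, Rb1 and Cdkn2c, and Cdkn2c and Cdk6 did not. This order depends on the length used. With merged exon lengths Ccnd1 (88.5 ± 10.9) came before Cdk4 (86.6 ± 14.2), Ccnd3 (8.45 ± 1.68) fell below Cdkn1b and Cdkn2b, and Rb1 (4.995 ± 0.771) came before Ccnd2 (4.74 ± 2.22).

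The genes whose pattern over the 4 tumours was most like that of Cdkn2a were Ikzf2, Marcksl1 and Fblim1, among 10268 other genes with a mean of at least 10 CPM. Likeness is the root-mean-square difference of log2 CPM centred on each gene's mean, which was 0.14, 0.16 and 0.17 for these 3 genes, and 0 genes came within 0.1. Ikzf2, an Ikaros family transcription factor, had 31.0, 25.0, 9.996 and 9.16 CPM in tumours 1 to 4. Marcksl1, an actin-binding protein gene, had 182, 123, 50.5 and 70.3 CPM, and Fblim1, which encodes a filamin-binding protein of cell adhesions, 63.8, 56.6, 25.5 and 32.7 CPM. With 4 points, many genes can share such an order.

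**Figure D4:**
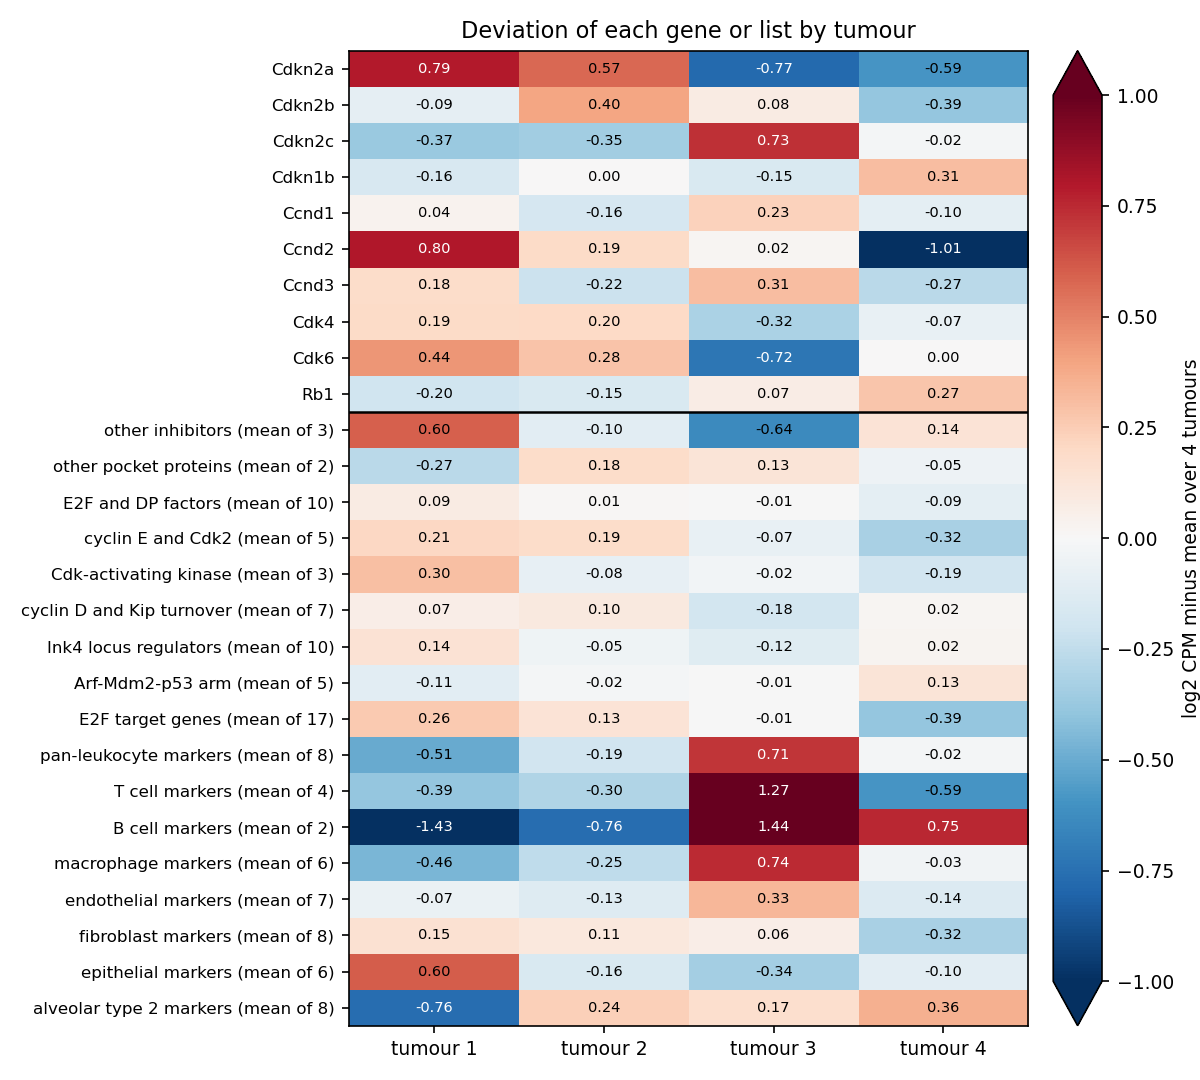
Log2 CPM minus its mean over the 4 tumours for each of the 10 genes (above the line) and for the mean of each pathway or marker list over its tested genes (below the line), with red above and blue below the mean and colours saturating at 1. Cdkn2a is at 0.79 in tumour 1 and -0.77 in tumour 3, Ccnd2 at 0.80 in tumour 1 and -1.01 in tumour 4, and pan-leukocyte markers at 0.71 in tumour 3.

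Other genes of the pathway were taken from lists by role. Counts of genes that varied in these lists stand against 76.7% of all genes tested. At a mean of at least 10 CPM that share was 85.3%. Of the remaining inhibitors, 2 of 3 varied beyond counting noise, and both belong to the Cip/Kip family. Cdkn1c, the gene of p57, had 46.5, 12.9, 5.31 and 18.6 CPM in tumours 1 to 4 (adjusted p = 1.12e-84), an SD of 1.29 on the log2 scale that exceeds that of each of the 10 members. Cdkn1a, the p21 gene, a known p53 target, had 77.9, 40.0, 32.2 and 49.0 CPM (adjusted p = 7.13e-44). Both were highest in tumour 1 and lowest in tumour 3. Cdkn2d, which did not pass (adjusted p = 0.088), had 4.29, 6.97, 6.91 and 6.54 CPM. Both other pocket protein genes varied: Rbl2 had 44.1, 61.6, 74.3 and 57.7 CPM (adjusted p = 6.03e-14) and Rbl1 35.1, 47.0, 36.2 and 36.4 CPM (adjusted p = 1.89e-04). Without tumour 2, 1 of these 2 genes passed, and 71.2% of all genes tested did.

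Of 10 genes of E2F and DP factors, 8 varied beyond counting noise, with a median log2 SD of 0.20. That median is below the 0.29 of all genes tested, of which 76.7% varied. Without tumour 3, 4 of the 10 passed, and 62.4% of all genes tested did. Tfdp1, the DP1 partner of E2F, had 79.3, 90.4, 74.7 and 70.2 CPM in tumours 1 to 4, and Tfdp2 60.1, 72.4, 60.6 and 64.0 CPM. E2f8, an atypical repressor, had 13.1, 13.8, 7.90 and 8.33 CPM, and E2f5 31.8, 24.9, 17.9 and 29.9 CPM. The genes that did not pass were E2f3, at 47.1 CPM on average (adjusted p = 0.40), and E2f7, at 3.87 CPM (adjusted p = 0.14).

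E2F target genes varied in 17 of 17 cases, with a median log2 SD of 0.33. Of all genes tested 76.7% varied, and 85.3% of those with a mean of at least 10 CPM. Of the 17, 16 were lowest in tumour 4 and 12 highest in tumour 1. The shares of all genes tested that were lowest or highest there were not computed, so these counts have no background beside them. Mki67, a proliferation marker, had 228, 189, 215 and 178 CPM in tumours 1 to 4, and Pcna, the DNA polymerase clamp, 165, 161, 180 and 137 CPM. Cdc6, which loads the replicative helicase, had 21.2, 16.6, 13.6 and 9.99 CPM, and Mcm6, a subunit of that helicase, 109, 101, 94.7 and 54.9 CPM. Tumour 4 was the lowest for each of these 4 genes. Of 5 genes for cyclin E, cyclin A, Cdk2 and the phosphatase that activates it, 5 varied. Without tumour 4, 3 of these 5 did, and 71.9% of all genes tested. Ccna2, which encodes cyclin A2, had 87.4, 56.6, 38.0 and 53.6 CPM, Cdk2, the kinase that acts after Cdk4, 39.8, 51.0, 52.9 and 49.4 CPM, and Ccne2, which encodes cyclin E2, 30.7, 26.0, 28.5 and 13.7 CPM. Ccne2 was thus lowest in tumour 4, as most E2F targets were, whereas Ccna2 was lowest in tumour 3 and Cdk2 in tumour 1.

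The Cdk-activating kinase, which phosphorylates Cdk4 and Cdk6 on the activation loop, varied in 3 of 3 genes, with a median SD of 0.23. Over all genes tested 76.7% varied. Without tumour 1 that share was 62.3%, and 1 of these 3 genes varied. Cdk7, its catalytic subunit, had 101, 90.1, 85.9 and 85.4 CPM in tumours 1 to 4, and Ccnh, its cyclin, 32.1, 30.4, 33.3 and 23.4 CPM. Mnat1, the assembly factor, had 30.0 CPM in tumour 1 and 15.8 to 17.2 CPM in the others. Of 7 genes of cyclin D and Kip turnover, 4 varied, with a median SD of 0.16, and Fbxo4, Fbxo31 and Skp2 did not pass. Without tumour 3, 2 of the 7 varied, against 62.4% of all genes tested. Gsk3b, a kinase that marks cyclin D1 for removal, had 110, 159, 132 and 156 CPM, and Ambra1, the substrate receptor for D cyclins, 54.6, 54.6, 43.2 and 51.4 CPM. Cks1b, which helps Skp2 recognise p27, had 70.0, 44.6, 21.6 and 38.9 CPM. It was highest in tumour 1 and lowest in tumour 3, the same ends as Cdkn2a and the tumours that stood furthest apart over all genes.

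Regulators of the Ink4 locus varied in 10 of 10 cases, against 76.7% of all genes tested. Their median SD of 0.31 was close to the 0.29 of all genes tested. The median was 0.25 over genes with a mean of at least 10 CPM. Bmi1, a Polycomb protein known to repress Cdkn2a, had 68.7, 136, 114 and 126 CPM in tumours 1 to 4 (adjusted p = 1.70e-45). It was lowest in tumour 1, where Cdkn2a was highest, but it was highest in tumour 2, where Cdkn2a was also high. Suz12, of the Polycomb complex that methylates histone H3, had 119, 98.7, 87.4 and 99.0 CPM, and Kdm6b, a demethylase that removes that mark, 68.1, 44.7, 24.7 and 48.3 CPM. Kdm6b was highest in tumour 1 and lowest in tumour 3, as Cdkn2a was, and these were the tumours that stood furthest apart over all genes. Unlike Cdkn2a, Kdm6b was lower in tumour 2 (44.7 CPM) than in tumour 4 (48.3 CPM).

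In the arm from Arf to p53, 4 of 5 genes varied, and Trp53 did not pass (adjusted p = 0.23). Without tumour 1, 2 of the 5 varied. Over all genes tested the share that varied was 76.7%, and 62.3% without tumour 1. Npm1, a nucleolar protein that binds Arf, had 604, 409, 324 and 443 CPM in tumours 1 to 4 (adjusted p = 7.88e-171). Npm1 has 6 near-identical copies in the annotation, so its level is less certain. Other genes named here have such copies too, with 22 for Trp53, 14 for Cdkn1a, 7 for Ccnd3 and 6 for Cdk6. Mdm4, a partner of Mdm2, had 82.6, 79.5, 122 and 124 CPM, low in tumours 1 and 2 and high in tumours 3 and 4, the reverse of the Cdkn2a pairing. Usp7, a deubiquitinase of Mdm2 and p53, had 131 CPM in tumour 1 and 187 to 191 CPM in the others.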

How the data were processed

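Counts of single-end RNA sequencing reads per Ensembl gene were deposited by the authors, as 1 table per tumour and 1 combined table. The combined table held 156068 values, and 0 differed from the single tables. The submitters' processing notes name bcl2fastq 2.17, cutadapt 1.4.2, HISAT2, featureCounts 1.4.4, edgeR and the mm10 build, and the authors' methods describe trimming with a different version of Cutadapt and alignment to mm10 with HISAT2. The authors' methods name a stranded library kit. The annotation release and the strand setting of the counting are not given in the sources used here. The authors also deposited log2 normalised values, which their methods describe as TMM with voom, and these served as an alternative.

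Effective library sizes were computed from the counts with TMM in edgeR 4.0.16 (R 4.3.3), and log2 CPM after adding 0.5 to counts and 1 to effective sizes. Spread was tested as given above with scipy 1.17.1 (Python 3.11.15) and checked on simulated data. The fold of highest over lowest tumour has an exact interval at 95% confidence for a pair of tumours fixed in advance, whereas these were picked by their counts. For Cdkn2d it was 1.07 to 2.50, although that gene did not vary beyond counting noise (chi-square adjusted p = 0.088). Without molecular identifiers in the reads, intervals and floors reflect counting error alone. No edgeR or limma comparison was made, since the samples form 1 group. Positions and lengths are those of GENCODE M21 on GRCm38, in which 37607 of 39017 gene IDs were found. Of 129 list symbols, 128 were matched by symbol and 1 by identifier. Near-identical copies were sought with BLAST 2.17.0 (at least 80 nt at 97% identity).

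One further allele of the model is not reported here. The members and lists were chosen with earlier results of these data known. Genes named were the 10 members, in each pathway list the 2 of highest mean CPM and the 2 of largest log2 SD (mean CPM of 10 or more), and the 3 genes nearest to the member of largest SD. Overlapping genes, near-identical copies, Cbx7, Trp53, Cdkn2d, E2f3, E2f7, Fbxo4, Fbxo31 and Skp2 were named outside this rule, after their values were seen. Alternatives were DESeq2 1.42.0 size factors, total counts, other filters, 2 added to each count, the deposited log2 values, no division by length, merged exon lengths and leaving out each tumour.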

Additional observations from a re-analysis of the deposited data

Results flagged for a closer look

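Among 112 genes, list means, paralog differences and shares tested, 8 had 1 tumour apart from the other 3 by Dixon's ratio. Chance flags about 1 in 20 (5.6 expected). The differences and shares reuse values of the same genes, so the 112 are not independent. None of the 8 was a difference or a share, and none was 1 of the 10 Ink4, cyclin D and Rb pathway genes. Cdkn2d was low in tumour 1 (4.29 CPM, others 6.54 to 6.97 CPM). This rests on 39 counts against 55 to 60, and Cdkn2d did not vary beyond counting noise (chi-square adjusted p = 0.088). Rbl1 was high in tumour 2 (47.0 CPM, others 35.1 to 36.4 CPM). Mnat1 was high in tumour 1 (30.0 CPM, others 15.8 to 17.2 CPM). Cbx7, a Polycomb gene on the list of Ink4 locus regulators, was high in tumour 1 (69.5 CPM, others 43.4 to 44.5 CPM). Usp7 was low in tumour 1 (131 CPM, others 187 to 191 CPM). The other 3 were marker lists. The mean log2 CPM of T cell markers was 1.88 in tumour 3 (others 0.02 to 0.31), that of endothelial markers was 5.26 in tumour 3 (others 4.79 to 4.86), and that of alveolar type 2 markers was 10.77 in tumour 1 (others 11.70 to 11.89).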

How the results depend on the processing

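No paired analysis was possible because the 4 tumours form 1 group. The mean of each of the 9 paralog differences kept its sign under the alternatives run. Library size cancels within a tumour, so other size factors and the deposited log2 values could not change these differences. In single tumours, Cdkn2a minus Cdkn2b turned negative in tumour 3 without division by length (exact permutation p = 0.25 in place of 0.125), and Rb1 minus Rbl1 in tumour 4 went from 0.05 to -0.01 without division by length and to -0.02 with merged exon lengths (exact permutation p = 0.125 in place of 0.25). The number of genes varying beyond counting noise was 10894 with DESeq2 size factors and 10993 with total counts only. It was 8807 to 10244 when 1 tumour was left out, 62.3% to 71.9% of those tested in place of 76.7%. It was 11323 of 21175 with no filter on low counts and 8756 of 10269 at a mean of at least 10 CPM. The number of members varying was 10 under each normalization and with no filter, 8 of 8 at a mean of at least 10 CPM, and 8 to 10 when 1 tumour was left out. Without tumour 3, Cdkn2c (SD 0.20) and Cdk6 (SD 0.22) lost the call, and without tumour 4 Rb1 did (SD 0.15). Leaving out 1 tumour gave 1 to 3 genes for the Cdk-activating kinase and 2 to 4 for the arm from Arf to p53 (lowest without tumour 1), 1 to 2 for the other pocket proteins (lowest without tumour 2), 4 to 8 for E2F and DP factors and 2 to 4 for cyclin D and Kip turnover (lowest without tumour 3), and 3 to 5 for cyclin E and Cdk2 (lowest without tumour 4). Fewer tumours also give the test fewer counts. Merged exon lengths, an alternative chosen after seeing the data, as were the other settings for shares, changed the shares per kilobase of Ccnd1 to 87.1%, Ccnd3 to 8.26%, Cdk4 to 99.6%, Cdk6 to 0.449% and Rbl2 to 40.4%, and the summed Ink4 level to 66.4% of that of the kinases. Without division by length, the mean log2 difference was -0.85 in place of -2.43 for Ccnd2 minus Ccnd3, 0.72 in place of 1.36 for Cdkn2a minus Cdkn2b, and -2.26 and -1.53 in place of -3.72 and -2.36 for Cdkn2c minus Cdkn2a and Cdkn2b. That of Rb1 minus Rbl1 was between -0.42 and -0.16 when 1 tumour was left out. At 26 to 66 counts per tumour, Cdk6 has the widest counting error of the 10 genes, and spread below about its counting SD of 0.22 could not be seen.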
